A study of Cicer arietinum with 32 samples.

Results

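The homeobox (HB) family of transcription factors was represented here by 4 transcripts that the study named in its seed gene networks or in its list of candidates for seed weight. They were Ca_TC00416, Ca_TC00936, Ca_TC01269 and Ca_TC00961, out of 38818 transcripts in the expression atlas of chickpea (Cicer arietinum). A value is given for each of them in every tissue/organ, and it is 0 for Ca_TC00961 in 2. Plants of genotype ICC4958 were sampled, without any treatment, in 32 tissues/organs by RNA-seq. The seed samples were whole seeds of 4 ages, named by their days after pollination as 5DAP, 10DAP, 20DAP and 30DAP, and the embryo, endosperm and seed coat of 10DAP seeds. The other 25 were the vegetative samples (germinating seedling, shoot, young and mature leaf, bracteole, shoot apical meristem or SAM, root, root tip, root hair and nodule), the podshell, 4 flower bud stages ordered by size (FB1-FB4), 5 flower stages from closed petals to senescence (FL1-FL5), and the calyx, corolla, androecium, gynoecium and pedicel of partly opened flowers.

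The data hold 1 value per transcript and tissue/organ. By the study's methods it is the average of 3 libraries, or of 2 libraries for 20DAP and 30DAP. The decimals of the root column differ from those of the other averages of 3, as described below. The spread between replicates is therefore not in the data, and no difference between single tissues/organs below has a replicate check or a test. In 31 tissues/organs the values are FPKM, in which fragments are scaled by the length of the transcript and by the number of mapped fragments, and they summed to between 597153 and 959753. The values of 20DAP summed to 29579443.3, and they are estimated counts that were divided by neither length nor depth, so 20DAP is given apart. The sequencing depth behind an FPKM value is not in the files. In whole tissues, a larger number of cells expressing a gene and more RNA per cell cannot be told apart. Among markers of the sampled organs, the root hair gene RHS14 was highest in root hair, the meristem gene STM in SAM, and the pollen-expressed genes RALFL19, ACA9 and SYP124 in androecium. STM does not set SAM apart from pedicel and shoot, with 31.587 FPKM in SAM, 29.073 FPKM in pedicel and 28.733 FPKM in shoot. Its root value was 48.3-fold its root tip value, and the reason was not tested. The light-harvesting gene LHCB6 was highest in bracteole, followed by seed coat. One label of the shoot sample reads root, but LHCB6 had 282.957 FPKM in shoot and 15 FPKM in root, and the shoot and root values were kept under their titles.

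Homeobox proteins bind DNA through a homeodomain, and plants use them to set up meristems, organ polarity, the epidermis and the embryo. The class III homeodomain-leucine zipper (HD-ZIP) proteins, which include Arabidopsis PHB, carry a lipid-binding START domain and a MEKHLA domain, are restricted by a microRNA, and specify the upper side of leaves, the meristem and the vascular tissue. The class IV HD-ZIP proteins also carry a START domain and act mainly in the outermost cell layer, and in Arabidopsis the class IV gene FWA is expressed in endosperm. Another kind joins the homeodomain to DDT and WHIM motifs, which are found in subunits of chromatin remodelling complexes.

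All 4 transcripts lie on chromosome Ca1 of the kabuli genome v1.0. Positions were at hand for only 1808 transcripts, and every HB transcript among those listed with a position lies on Ca1. The shared chromosome therefore does not set the members apart. Ca_TC00416 (Ca1:2735331-2744650) has the Arabidopsis gene HB-1 as its best match and carries the DDT, WHIM and homeodomain motifs. Ca_TC00936 (Ca1:7416440-7422238) matches PHB and carries the homeodomain, START and MEKHLA domains. Ca_TC00961 (Ca1:7597590-7605467) matches homeodomain GLABROUS 11 (HDG11), a class IV gene known in Arabidopsis for its part in trichome branching. Ca_TC01269 (Ca1:9950439-9959423) is given here by its family only, because no gene name was found for it in the annotation used. These positions cover introns, and the strand is not given in the sources used here.

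The 4 transcripts had 4 different profiles. Ca_TC00416 was expressed, at an FPKM of at least 0.5, in 31 of 31 tissues/organs, Ca_TC01269 in 30, Ca_TC00936 in 26 and Ca_TC00961 in 1. Of all transcripts, 31.5% were expressed in all 31. The tissue specificity index (TSI) is 0 for a transcript at the same level everywhere and 1 for a transcript found in a single tissue/organ. On log2(FPKM + 1) it was 0.14 for Ca_TC00416, 0.31 for Ca_TC01269, 0.58 for Ca_TC00936 and 0.94 for Ca_TC00961, and 1 of the 4 passed the threshold of 0.9, which 18.0% of the 34063 transcripts expressed in at least 1 tissue/organ passed. The study had taken its candidates for seed weight from transcripts that were tissue-specific at this threshold in these same samples. Ca_TC00961 came from that list, so its passing only describes how it was chosen.

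**Figure D1:**
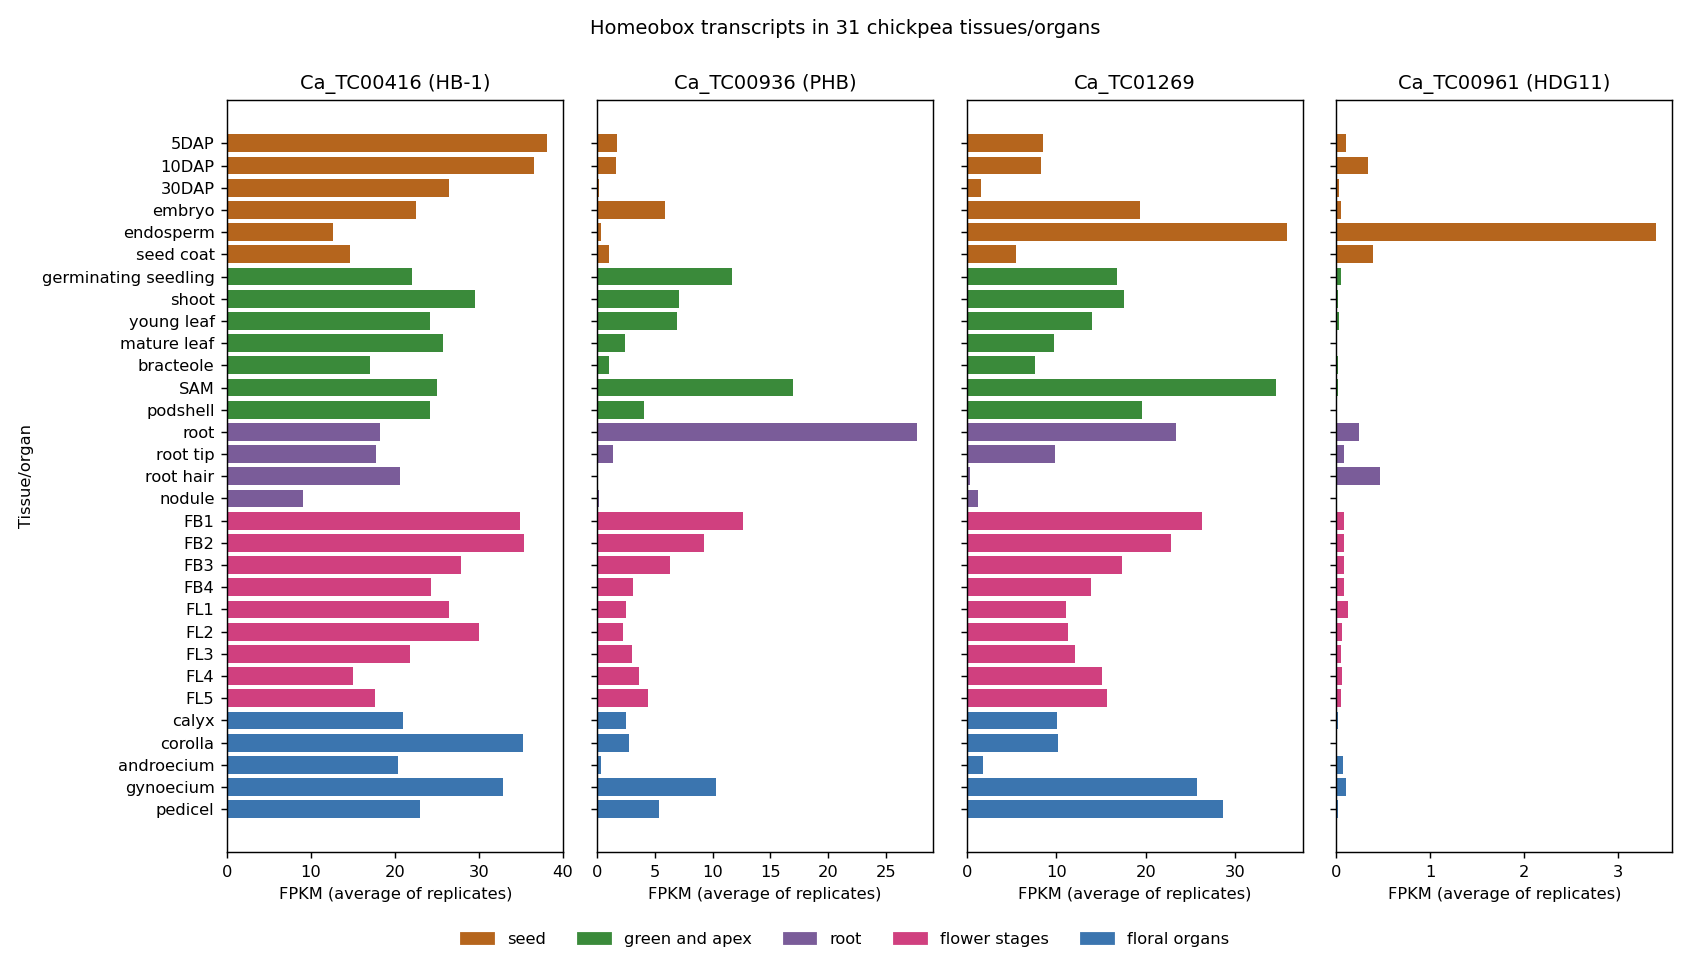
FPKM of the 4 homeobox transcripts (horizontal axes, each with its own scale) in 31 tissues/organs (vertical axis), where each bar is the authors' average of the replicates and the colours mark seed, green and apex, root, flower stage and floral organ samples. Ca_TC00416 stays between 8.997 and 38.187 FPKM, Ca_TC00936 is highest in root, Ca_TC01269 in endosperm and SAM, and Ca_TC00961 in endosperm, with 20DAP left out because it holds counts.

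Ca_TC00416, the HB-1-like transcript, was the most even of the set. Its level was 38.187 FPKM at 5DAP, 36.647 FPKM at 10DAP and 26.43 FPKM at 30DAP, and 5DAP was its highest tissue/organ of 31, as it was for 6.16% of all expressed transcripts. The whole young seed stood above each of its dissected parts, with 22.577 FPKM in embryo, 14.633 FPKM in seed coat and 12.58 FPKM in endosperm. A whole 10DAP seed above all 3 parts was seen for 1 of the 4 transcripts and for 30.7% of all expressed transcripts.

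Outside the seed, Ca_TC00416 had 35.357 FPKM in FB2, 35.26 FPKM in corolla and 32.883 FPKM in gynoecium. The lowest level of all was 8.997 FPKM in nodule, the nitrogen-fixing organ of the root, and endosperm came next. The nodule column has the smallest sum of the 31, and on a common sum the order turned, with 12.1 in nodule and 10.5 in endosperm. By percentile among all transcripts, Ca_TC00416 stood at 89.2 in nodule and was lowest in FL4, at 77.3. In FPKM, the highest and lowest of the 31 values differed 4.24-fold. Seed tissues had a median of 24.5 FPKM against 24.2 FPKM in the other 25, a difference of 0.01 on the log2(FPKM + 1) scale. The order among close neighbours, such as podshell and young leaf at 24.21 FPKM each, carries no information without replicate values.

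Ca_TC00936, the PHB-like transcript, was highest in root, SAM, the smallest flower buds and germinating seedlings. It had 27.68 FPKM in root, 16.99 FPKM in SAM, 12.657 FPKM in FB1 and 11.72 FPKM in germinating seedling. The other samples of the root system were low, with 1.42 FPKM in root tip, 0.223 FPKM in nodule and 0.007 FPKM in root hair. The root value was 19.5-fold that of root tip and stood apart from the rest of the root system. For the meristem gene STM the same ratio was 48.3. Root and root tip came from seedlings of the same age, but root hair from younger, dark-grown seedlings and nodule from mature field plants. Age and growth conditions thus differ along with tissue/organ. Of all expressed transcripts, 5.32% were highest in root. Its averaging is less clear than that of other tissues/organs. Of the values above 0 in the root column, 100% have at most 2 decimals, against 32.7-33.7% in the 29 columns whose decimals are those of averages of 3. Whether the root values are those of a single library was not tested, and without root the highest tissue/organ of Ca_TC00936 is SAM.

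In the seed, Ca_TC00936 was highest in the embryo. Its level there was 5.907 FPKM, against 1.023 FPKM in seed coat and 0.333 FPKM in endosperm, which makes the embryo 17.7-fold higher than the endosperm. Whole seeds had 1.703 FPKM at 5DAP, 1.663 FPKM at 10DAP and 0.17 FPKM at 30DAP. The median over the 6 seed samples was 1.34 FPKM against 3.66 FPKM over the other 25, a difference of -1.005 on the log2(FPKM + 1) scale.

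Ca_TC01269 was high in SAM and small flower buds, as Ca_TC00936 was, but also in endosperm. It had 35.74 FPKM in endosperm, 34.577 FPKM in SAM, 28.59 FPKM in pedicel and 26.253 FPKM in FB1. The endosperm and SAM values differed only 1.03-fold, and which of them is the higher cannot be told from averages. In the same seeds the embryo had 19.397 FPKM and the seed coat 5.503 FPKM. Whole seeds had 8.57 FPKM at 5DAP, 8.317 FPKM at 10DAP and 1.6 FPKM at 30DAP. The lowest levels were 0.39 FPKM in root hair, 1.28 FPKM in nodule, 1.6 FPKM at 30DAP and 1.793 FPKM in androecium. The seed median was 8.44 FPKM against 13.953 FPKM in the rest, a difference of -0.66 on the log2(FPKM + 1) scale. The seed median was thus the lower one for 2 of the 4 transcripts, Ca_TC00936 and Ca_TC01269, as it was for 52.7% of all expressed transcripts.

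Between whole seeds, 30DAP was below 0.5 of 5DAP for 3 of the 4 transcripts and for 64.9% of all expressed transcripts, so the count is near the background. The ratio of 30DAP to 5DAP was 0.69 for Ca_TC00416, 0.25 for Ca_TC00961, 0.19 for Ca_TC01269 and 0.10 for Ca_TC00936. For Ca_TC00961 both values are close to 0, and 10DAP was higher than either. The percentile among all transcripts of the sample moved little, being 66.7 at 5DAP and 64.5 at 30DAP for Ca_TC01269 and 48.8 and 46.1 for Ca_TC00936. It was higher at 30DAP for Ca_TC00416, with 89.6 at 5DAP and 94.3 at 30DAP, and for Ca_TC00961, with 29.8 and 34.3.

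Flower development gave a second series with an order of its own. Ca_TC00936 was lower at each step of bud growth, with 12.657, 9.217, 6.333 and 3.143 FPKM in FB1, FB2, FB3 and FB4. Ca_TC01269 did the same, with 26.253, 22.77, 17.347 and 13.877 FPKM. Both were at their lowest around flower opening and higher again in fading flowers. Ca_TC00936 had 2.217 FPKM in FL2 and 4.43 FPKM in FL5, and Ca_TC01269 had 11.09 FPKM in FL1 and 15.723 FPKM in FL5. These were 2 of the 4 transcripts, and 22.0% of all expressed transcripts were lower at each step of FB1-FB4.

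Ca_TC00416 did not follow this course. It had 34.967 FPKM in FB1, 35.357 FPKM in FB2, 24.317 FPKM in FB4 and 29.99 FPKM in FL2, and its lowest value of the series was 15.033 FPKM in FL4. Ca_TC00961 stayed between 0.047 and 0.123 FPKM through all 9 stages. Among the organs of the partly opened flower, the gynoecium was higher than the androecium for 4 of the 4 transcripts, as it was for 64.0% of all expressed transcripts. As a ratio, the gap was widest for Ca_TC00936, with 10.3 FPKM in gynoecium and 0.313 FPKM in androecium. Ca_TC01269 had 25.763 FPKM in gynoecium and 1.793 FPKM in androecium.

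**Figure D2:**
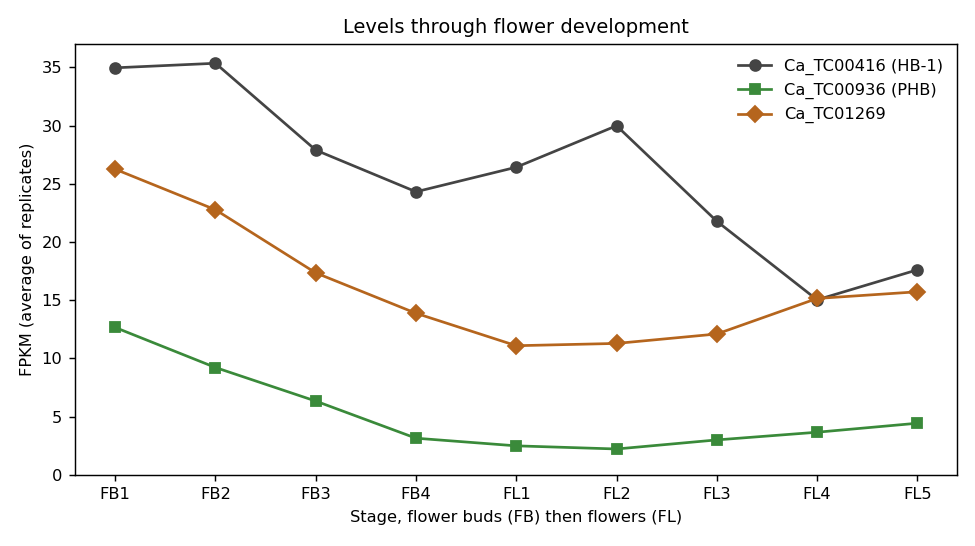
FPKM (vertical axis, starting at 0) of Ca_TC00416, Ca_TC00936 and Ca_TC01269 through 4 flower bud stages and 5 flower stages (horizontal axis), where each point is the authors' average of the replicates. Ca_TC00936 and Ca_TC01269 are lower at each bud stage and are higher again in late flowers, while Ca_TC00416 has its lowest value in FL4.

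The profiles of Ca_TC00936 and Ca_TC01269 were the most alike of the 6 pairs. On log2(FPKM + 1), Pearson's r over the 31 tissues/organs was 0.77 and Spearman's rho was 0.80. One tissue/organ stood apart, the endosperm, with 0.333 FPKM of Ca_TC00936 and 35.74 FPKM of Ca_TC01269, and r was 0.89 without it. That setting was chosen after the values had been seen. Of the other pairs, Ca_TC00416 and Ca_TC00936 had an r of 0.37 and Ca_TC00416 and Ca_TC01269 an r of 0.26. Ca_TC00961 had an r of -0.32 with Ca_TC00416, -0.30 with Ca_TC00936 and 0.12 with Ca_TC01269. The last was -0.33 without endosperm. These correlations describe 31 tissues/organs with 1 value each, and several of the values come from 1 organ at close stages.

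**Figure D3:**
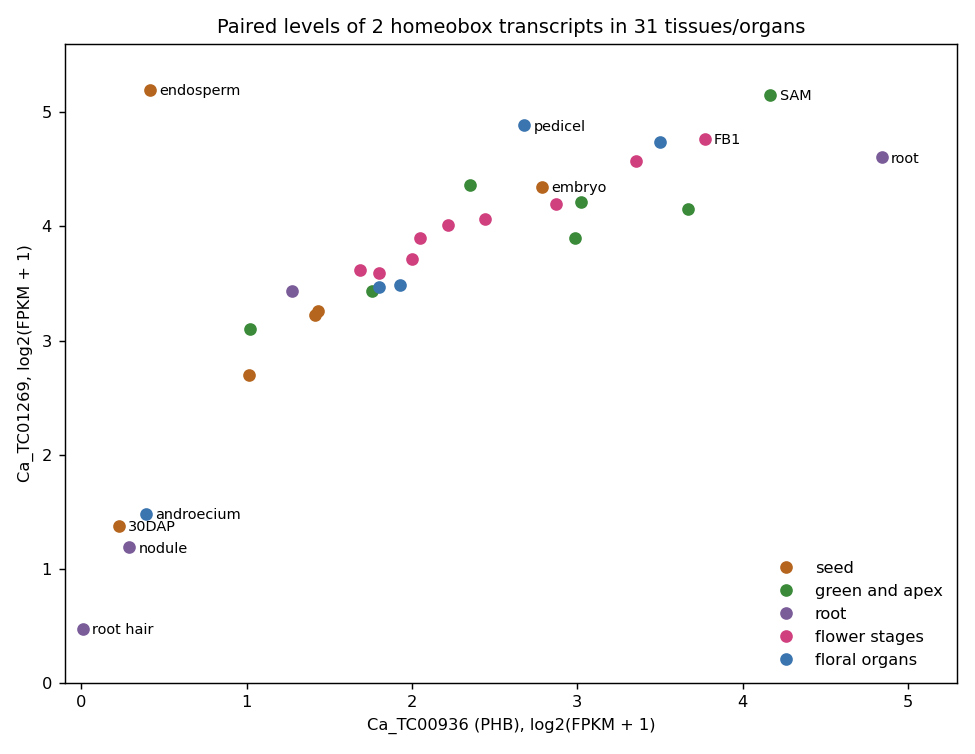
Levels of Ca_TC00936 (horizontal axis) and Ca_TC01269 (vertical axis), both as log2(FPKM + 1), with 1 point for each of 31 tissues/organs, coloured by organ. The points lie along a band (r = 0.77) except endosperm at the upper left, where Ca_TC01269 had 35.74 FPKM and Ca_TC00936 had 0.333 FPKM.

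Each transcript was also set against all other expressed transcripts to find those with the most similar profile. For Ca_TC01269 the closest of 34062 was Ca_TC15695 (r = 0.91), followed by Ca_TC25432 (r = 0.90) and Ca_TC24934 (r = 0.90). Ca_TC24934 is another HB transcript, with 38.167 FPKM in endosperm and 36.7 FPKM in pedicel. Next came Ca_TC19120 (r = 0.89) and Ca_TC35506 (r = 0.89), which is annotated as purine biosynthesis 4. For Ca_TC00936 the closest was Ca_TC00688 (r = 0.87), which is also highest in root, with 37.39 FPKM. It was followed by Ca_TC25261 (r = 0.87), Ca_TC16068 (r = 0.86), Ca_TC12350 (r = 0.85) and Ca_TC10633 (r = 0.85).

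The even profile of Ca_TC00416 was closest to Ca_TC10452 (r = 0.92), with 8.957 FPKM at most, and then to Ca_TC13301, Ca_TC04046, Ca_TC27396 and Ca_TC22869, with r between 0.86 and 0.88. For Ca_TC00961 the list began with Ca_TC28543 (r = 0.96), Ca_TC21129 (r = 0.96), Ca_TC18870 (r = 0.96), Ca_TC08678 (r = 0.96) and Ca_TC13108 (r = 0.96), each highest in endosperm. In this profile r rests on 1 tissue/organ, and for these 5 it was between 0.61 and 0.75 without endosperm. As many as 714 transcripts had an r above 0.9 with Ca_TC00961, against 2 with Ca_TC01269, 1 with Ca_TC00416 and 0 with Ca_TC00936.

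Ca_TC00961, the HDG11-like transcript, was an endosperm transcript at low level. It had 3.413 FPKM in endosperm, followed by 0.467 FPKM in root hair, 0.387 FPKM in seed coat and 0.333 FPKM in the whole 10DAP seed. Embryo had 0.047 FPKM, and the transcript is listed at 0 in podshell and mature leaf. Endosperm was 7.31-fold above the next tissue/organ and 72.6-fold above embryo, where the embryo value is close to 0. With 20DAP included as deposited, 20DAP was its highest tissue/organ and the TSI was again 0.94. The study describes its candidates for seed weight as specific to whole-seed stages, mostly 20DAP. Endosperm was the highest tissue/organ of Ca_TC00961 only with 20DAP left out or brought to a common sum. With Ca_TC01269, 2 of the 4 transcripts were highest in endosperm, against 9.96% of all expressed transcripts. On a common sum the highest tissue/organ of Ca_TC01269 was SAM, with 33.1 against 29.8 in endosperm, which leaves 1 of the 4, against 7.39%.

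Ca_TC00961 stands in a row of transcripts with the same annotation. Within 44854 bases of Ca1 lie Ca_TC00960 (Ca1:7585514-7592408), Ca_TC00961, Ca_TC00962 (Ca1:7608620-7616012) and Ca_TC00964 (Ca1:7624588-7630367), each with HDG11 as its best Arabidopsis match. All 4 were highest in endosperm, and Ca_TC00961 was the lowest of them there. Endosperm levels were 3.413 FPKM for Ca_TC00961, 32.363 FPKM for Ca_TC00960, 35.273 FPKM for Ca_TC00962 and 6.987 FPKM for Ca_TC00964. The neighbours Ca_TC00960 and Ca_TC00962 were thus 9.48-fold and 10.3-fold above Ca_TC00961. Near-identical copies can share reads, and the estimate divides such reads among them, so how much of each level belongs to which copy is uncertain. Ca_TC00961 was the only copy of the 4 whose second highest level lay outside the seed, at 0.467 FPKM in root hair, whereas Ca_TC00960, Ca_TC00962 and Ca_TC00964 were second highest in the 10DAP seed, with 1.43, 1.473 and 1.143 FPKM. The root hair value is under the threshold of 0.5 FPKM and close to the 0.387 FPKM of Ca_TC00961 in seed coat. Its place as second highest therefore carries little information without replicate values.

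**Figure D4:**
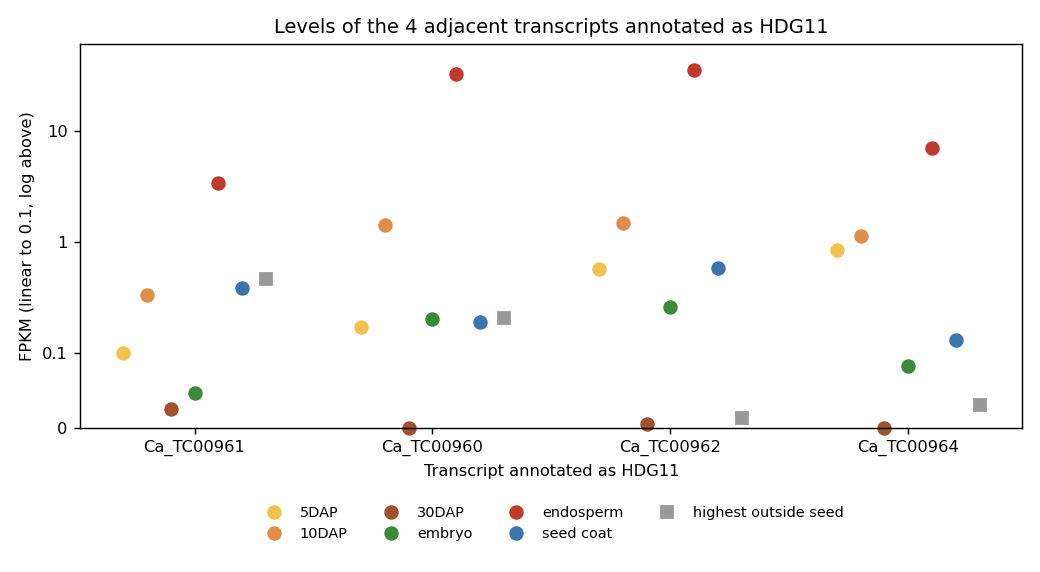
FPKM (vertical axis, linear up to 0.1 and logarithmic above) of Ca_TC00961 and the 3 adjacent transcripts with the same annotation (horizontal axis), where circles are the 6 seed samples and squares the highest of the 25 other samples. Endosperm is the highest sample for each, at 3.413 FPKM for Ca_TC00961 and between 6.987 and 35.273 FPKM for the others.

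Between the copies lies Ca_TC00963, with no annotation in the list used and 1.51 FPKM in endosperm. On either side are Ca_TC00959, annotated as a putative type 1 membrane protein, with 150.547 FPKM in endosperm and 127.673 FPKM in root hair, and Ca_TC00965, annotated as related to late embryogenesis abundant proteins, with 25.21 FPKM in endosperm and 18.023 FPKM in root tip. On a common sum Ca_TC00959 was highest in root hair, with 141 against 126 in endosperm. Farther out, Ca_TC00956 and Ca_TC00957, were highest in germinating seedling and gynoecium.

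Of the other members, 2 overlap another listed locus. Ca_TC00416 lies wholly inside the span listed for Ca_TC00417, annotated as an NB-ARC disease resistance protein, which reached 113.76 FPKM at 5DAP. That span is long (Ca1:2040890-2886393) and also holds Ca_TC00413, Ca_TC00414 and Ca_TC00415. Ca_TC01269 shares 93.2% of its span with Ca_TC01270, which had no more than 0.057 FPKM in any of the 31. The closest locus to Ca_TC00936 on the list is Ca_TC00937, a subunit of the transcription factor NF-Y, 12786 bases away, which was highest at 5DAP with 50.667 FPKM, followed by embryo with 49.56 FPKM. Spans include introns and reads were aligned to transcripts, so overlapping spans need not share reads, and whether they do was not tested.

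At 20DAP the 4 transcripts had estimated counts of 3344.745 for Ca_TC00416, 131.175 for Ca_TC01269, 55 for Ca_TC00936 and 9 for Ca_TC00961. As deposited, this made 20DAP the highest of 32 for 4 of the 4, and for 62.7% of the 35225 transcripts with a value of at least 0.5 in any of the 32. Per 1000000 estimated counts, the values were 113 for Ca_TC00416 (95% exact Poisson interval 110-116), 4.43 for Ca_TC01269 (3.91-5.01), 1.86 for Ca_TC00936 (1.53-2.24) and 0.304 for Ca_TC00961 (0.180-0.481). The intervals rest on the summed counts of 2 libraries and cover counting error only.

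After all samples had been brought to the same sum, 20DAP was the highest for 1 of the 4, Ca_TC00416, against 6.10% of all transcripts. 20DAP ranked 24 of 32 for Ca_TC00936, 28 for Ca_TC01269 and 5 for Ca_TC00961. A count is not divided by transcript length, so long transcripts rank higher in 20DAP than elsewhere, and how far length moved these ranks was not tested. Within the 20DAP sample, Ca_TC00416 stood at percentile 97.0 of all transcripts, against 77.3-94.3 in the other 31. Ca_TC01269 stood at percentile 63.6 against 49.1-90.6, Ca_TC00936 at 55.8 against 26.7-88.1, and Ca_TC00961 at 43.3 against 10.0-61.3. Ca_TC00416 was thus outside its range in the other 31 and the other transcripts within theirs.

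**Figure D5:**
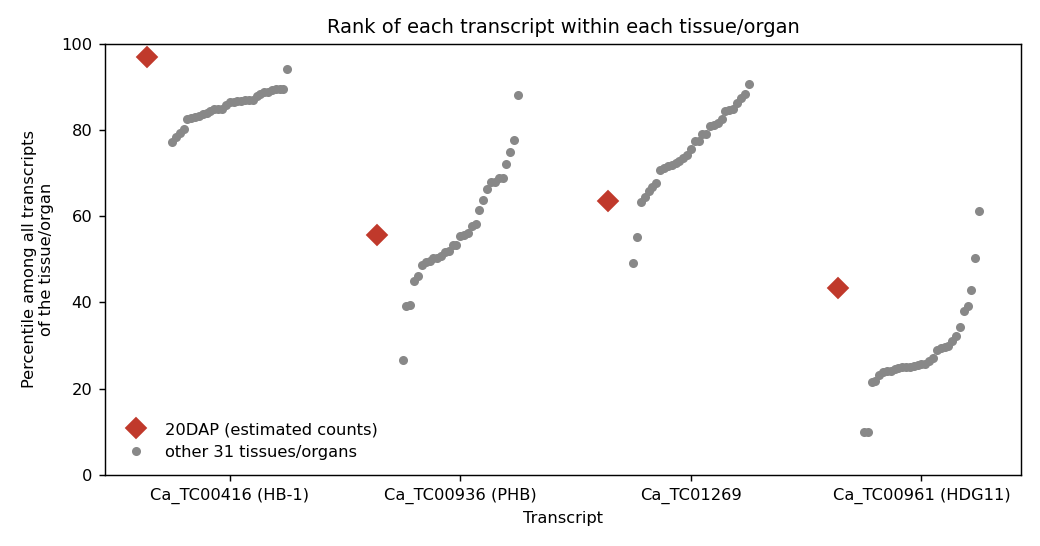
Percentile of each homeobox transcript (horizontal axis) among all 38818 transcripts of a tissue/organ (vertical axis, 0 to 100), with 20DAP as a red diamond at the left of each group and the other 31 tissues/organs as grey points in rising order. In 20DAP Ca_TC00416 stands at 97.0, above its other 31 values, and the diamonds of the other transcripts lie within their ranges.

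The study built its seed networks from transcripts whose variance over the tissues/organs passed a minimum, so the variance of the members was computed with and without 20DAP. On log2(FPKM + 1), Ca_TC00416 had a variance of 1.79 over 32 tissues/organs as deposited and 0.21 over the 31 without 20DAP. Ca_TC01269 had 1.67 and 1.35, Ca_TC00936 had 1.89 and 1.51, and Ca_TC00961 had 0.45 and 0.15. At a minimum of 1.5, 3 of the 4 passed with 20DAP as deposited, where 13176 transcripts (33.9% of all) passed. Without 20DAP, 1 of the 4 passed, where 7124 transcripts (18.4%) passed. The 3 are those named in the networks, which took only transcripts past such a minimum. Their count is therefore not independent of how the members were chosen. The transcripts that passed only with the 20DAP counts at this pseudocount were Ca_TC00416 and Ca_TC01269. With a pseudocount of 0.1, Ca_TC01269 passed without 20DAP too, at 2.03, and Ca_TC00961 passed only with it, at 1.97 against 1.03. On a common sum with 20DAP, 0 of the 4 passed, with 1.46 for Ca_TC00936. Ca_TC00416 thus passed only with the counts as deposited at either pseudocount. The networks were made from these same samples, and their input held as many transcripts as passed here with 20DAP as deposited. Beyond this equal number, whether they used the 20DAP values as deposited was not tested. Placing a transcript in a network is therefore not independent evidence of its pattern.

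Ca_TC01269 belongs to a module (M1) that the study linked to the embryo, together with 6 other HB transcripts, Ca_TC05814, Ca_TC08267, Ca_TC18580, Ca_TC20412, Ca_TC24934 and Ca_TC27355. Of these 7, 0 had their highest of 31 values in embryo, against 43.1% of the 796 transcripts of that module and 4.73% of all expressed transcripts. Embryo ranked 9 for Ca_TC01269, with 19.397 FPKM, and between 4 and 21 over the 7. In the set, Ca_TC27355 was highest in endosperm, with 43.227 FPKM. Ca_TC01269 and Ca_TC24934 were highest in endosperm in FPKM, but on a common sum in SAM and in pedicel.

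Across the 23 HB transcripts found in the lists used, 9 were highest in endosperm, or 7 after scaling to a common sum, where the shares of all expressed transcripts were 9.96% and 7.39%. Of the 23, 8 had a TSI of at least 0.9, against 18.0% of expressed transcripts, and 3 were expressed in all 31, against 31.5% of all transcripts. Part of these lists was drawn up from tissue specificity in the same samples, so the counts are descriptions. The highest of them was Ca_TC04207, with 143.157 FPKM in endosperm against 4.8 FPKM in embryo, the next tissue/organ. The annotation list was not drawn up by expression, and 9 of the 23 were taken from it. The part used covers 1137 of the 38818 transcripts, and all of its HB transcripts lie on Ca1. Of these 9, those highest in endosperm were the 4 of the HDG11 row, which lie close together and may share reads. The study assigned many more transcripts to the HB family than are listed here. The counts therefore do not describe the whole family.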

How the data were processed

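The authors filtered paired-end reads with NGS QC Toolkit v2.3, aligned them with bowtie2 v2.3.4.1 to their own transcriptome assembly, quantified transcripts with RSEM v1.2.28 and averaged the replicates. The authors deposited FPKM for 31 tissues/organs. For 20DAP, the deposited values are estimated counts, as read from their sum and decimals. Values were used as deposited, and 20DAP was left out unless named. Expression was called from 0.5 FPKM upwards, and a pseudocount of 1 preceded log2. TSI is the sum of 1 minus each value over the highest value, divided by 1 less than the number of tissues/organs, with a threshold of 0.9. Correlations are descriptions without p-values. Named were the members, HB transcripts of the lists used, loci near or overlapping a member, and the 5 closest profiles per member. The members and lists were chosen with earlier results of these data known. Positions, families and gene names come from the parts of the study's supplementary lists used here. The RefSeq gene table shares no identifier with the transcripts and was not used, and no sequence is printed. Alternatives covered the threshold, the pseudocount, scaling, the scale, 20DAP and single tissues/organs. Scripts ran in Python 3.11.15 with pandas 2.3.3 and scipy 1.17.1 and were tested on simulated data.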

Additional observations from a re-analysis of the deposited data

How the results depend on the processing

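No paired analysis was possible because each tissue/organ has 1 value, and for the same reason no replicate could be left out. With no replicate spread, a value was taken as moved when it changed by 0.1 or more, or 1.5-fold for counts. Of 94 alternative values, 54 stayed within this, 36 moved and 4 changed sign. Leaving out root or endosperm, and the alternatives for the variance and for the highest tissue/organ, were chosen after seeing the data. On a common sum, 1 of the 4 transcripts instead of 2 was highest in endosperm, and 0 passed the variance minimum with 20DAP (3 as deposited) or without it (1 as deposited). With a pseudocount of 0.1, 2 passed it without 20DAP. Ca_TC00961 was expressed in 8 tissues/organs at a threshold of 0.1 and in 2 with a common sum, instead of 1. TSI on untransformed FPKM was 0.38 for Ca_TC00416, 0.84 for Ca_TC00936 and 0.61 for Ca_TC01269. With a pseudocount of 0.1, and 0 kept at 0 on the log scale, it was 0.42 for Ca_TC00936 and 0.21 for Ca_TC01269, and that of Ca_TC00961 was 0.85, under the threshold. With 20DAP as deposited TSI was 0.61 for Ca_TC00416 and 0.48 for Ca_TC01269, and with 20DAP on a common sum it was 0.30 for Ca_TC00416.

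The seed difference of Ca_TC00936 was -0.85 with a common sum, -1.42 with a pseudocount of 0.1 and -0.76 with 20DAP on a common sum. That of Ca_TC01269 was -0.54 with a common sum, and that of Ca_TC00961 was 0.94 with a pseudocount of 0.1 instead of 0.20.

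For Ca_TC00416 and Ca_TC00936, r was 0.14 on untransformed FPKM, 0.56 with 20DAP as deposited, 0.18 without nodule and endosperm, which lie farthest from the median of Ca_TC00416, and 0.47 without root. For Ca_TC00416 and Ca_TC01269 it was 0.11 on untransformed FPKM, 0.52 with 20DAP as deposited and 0.37 without endosperm. For Ca_TC00416 and Ca_TC00961 it was 0.0074 as Spearman's rho, 0.71 with 20DAP as deposited, -0.14 without nodule and endosperm and -0.034 without endosperm. For Ca_TC00936 and Ca_TC01269 it was 0.61 on untransformed FPKM and 0.89 without endosperm. For Ca_TC00936 and Ca_TC00961 it was -0.11 as rho, -0.15 on untransformed FPKM, 0.24 with 20DAP as deposited and -0.19 without endosperm. For Ca_TC01269 and Ca_TC00961 it was 0.37 on untransformed FPKM, 0.45 with 20DAP as deposited, 0.24 without root hair and nodule, which lie farthest from the median of Ca_TC01269, and -0.33 without endosperm. Values with 20DAP as deposited mix counts with FPKM, and the cause of the other changes was not tested.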
